A study of Mus musculus with 8 samples.

Results

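Fibroblasts from the hearts of Siah-knockout mice were set against those of wild-type mice in normoxia, with 2 samples of each genotype. Transcript levels were compared across autosomal genes with a symbol, each read by 1 array spot, the brightest of its gene over all 8 samples of the series. That rule gave 23370 autosomal genes of 24306 named genes. The dimmest 30% of all named genes, those with a mean under 3.39 on the log2 scale, were left out, and 16414 autosomal genes were tested. The 6956 dim autosomal genes are accounted for only as left out. The genotypes are labelled Siah knockout and WT, called KO and WT here, and the label does not say which Siah gene was altered, in what way or in which cells. The 4 groups of the series were KO in normoxia, WT in normoxia, KO in hypoxia and WT in hypoxia, with 2 samples each. All were primary heart fibroblasts grown in DMEM with serum, and hypoxia meant 6 h at 1% O2. The sources used here do not give strain, age or sex of the mice. The design text calls the samples of a group biological replicates. Whether any of them came from the same animal or culture is not stated, so p-values measure only the spread between these samples, which may be technical.

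Siah proteins are RING-finger ubiquitin ligases that tag bound proteins for degradation by the proteasome. Among the known targets of Siah2 are prolyl hydroxylases, the enzymes through which oxygen triggers the breakdown of hypoxia-inducible factors. Heart fibroblasts make and remodel the extracellular matrix of the heart, and cultures of freshly isolated ones can hold macrophages and other cells of the tissue. The normoxia comparison addresses how the genotypes differed before the oxygen level was lowered.

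The array carried 62976 spots, and the values ran from 2.13 to 16 in log2 intensity. Genes such as Acta2, at 15.99 to 16, lay at the top of that range, where a difference cannot be read, and a gene at 15.9 or more in all 4 normoxia samples is described as at the ceiling. Over all spots, which are not independent replicates, the KO samples correlated with r = 0.987 and the WT samples with r = 0.984, and samples of different genotype with r of 0.984 to 0.987. Samples of 1 group thus differed about as much as samples of different genotype. The first principal component of the 4 normoxia samples held 45.1% of the variance and placed the KO samples at -12.6 and 41.1 and the WT samples at 21.3 and -49.8. It separated the replicates of each group and not the genotypes. The second component held 31.7% and placed the KO samples at 25.2 and 25.3 and the WT samples at -45.5 and -5.0, so it did separate the genotypes. Precision is limited by the number of arrays.

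The fibroblast label was checked against 14 markers, all of which were above the dim level. Col1a1, the chain of type I collagen, lay at 15.52 and 15.33 in KO cells and 15.47 and 15.35 in WT cells, and the epicardium-derived fibroblast factor Tcf21 lay at 11.25 and 11.32 in KO cells and 11.24 and 11.15 in WT cells. Both genotypes therefore held fibroblast transcripts at bright levels. Macrophage transcripts were bright in both genotypes too, and they are described with their own list. Among sex-linked genes, used only as a check of the samples, the Y-linked Eif2s3y lay at 4.01 and 3.53 in KO cells and at 8.80 and 9.10 in WT cells, a log2 fold change of -5.18 (SE 0.23, limma adjusted p = 0.00562). Xist, the X-inactivation RNA, lay at 4.89 and 5.17 in KO cells and at 3.37 and 4.22 in WT cells. In hypoxia Xist lay at 5.32 and 5.37 in KO cells and at 3.3 and 3.54 in WT cells. All KO samples of the series thus lay above all WT samples for Xist, at low levels. The Y-linked Kdm5d, read by the brightest of its 6 spots, lay at 6.47 and 5.80 in KO cells and at 5.95 and 6.05 in WT cells. Uty, read by the brightest of its 3 spots, lay at 4.15 and 3.73 in KO cells and at 4.03 and 4.12 in WT cells. Uty was near the dim level in both genotypes, so a fall could hardly be read there. Kdm5d lay well above that level and did not fall with Eif2s3y on this spot. The differences in Eif2s3y and Xist followed the genotype in all samples, and they cannot be told apart from the genotype. Whether the KO and WT cultures differed in sex was not tested.

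No autosomal gene was called in normoxia at an adjusted p under 0.05 (0 of 16414, 0%). The smallest adjusted p in limma was 0.121, shared by Folr2, Cd36 and Ptprz1. At an unadjusted p under 0.05, 1060 genes (6.46%) passed, where 821 would be expected if no gene differed. Of these, 460 (2.80%) were higher in KO cells and 600 (3.66%) were lower. Both KO samples lay above both WT samples for 2731 genes (16.6%) and below both for 2455 (15.0%). The median log2 fold change over all tested genes was 0.03 and the median standard error 0.30. Differences of over 1 in size were found for 265 genes on the higher side and 491 on the lower side. All values below are therefore descriptions of these 4 samples: none of the named autosomal genes passed the test over all genes.

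Of the Siah genes, Siah2 lay lower in both KO samples in normoxia. It gave 6.60 and 7.39 in KO cells and 9.04 and 8.71 in WT cells, a log2 fold change of -1.88 (SE 0.35, limma adjusted p = 0.415). Both KO samples lay below both WT samples. In hypoxia Siah2 gave 9.29 and 8.87 in KO cells and 9.55 and 8.96 in WT cells, so the groups overlapped there, and the normoxia difference exceeded the hypoxia difference by -1.70 (SE 0.50, limma unadjusted p = 0.0135, adjusted p = 1.0). The KO level in normoxia thus lay below that of the other 6 samples. Siah1a, a close relative with the same ligase fold, gave 9.44 and 9.16 in KO cells and 9.0 and 8.97 in WT cells, with both KO samples higher by a mean of 0.31 (SE 0.18). Without KO replicate 1 in normoxia Siah1a differed by 0.17. Siah3, a further family member, lay at 5.31 and 5.30 in KO cells and 3.64 and 4.77 in WT cells. For both of these genes the KO samples lay above the WT samples. Each of the Siah genes had 1 spot, and whether it lies inside the altered stretch is unknown, so the genotype label is not checked by these values.

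The prolyl hydroxylase genes, of which some encode known protein targets of Siah2, gave small differences as transcripts, apart from Egln3. Egln1 gave 12.10 and 11.94 in KO cells and 11.88 and 11.89 in WT cells, with both KO samples above both WT samples by a mean of 0.13 (SE 0.22). Egln2 gave 12.09 and 11.95 in KO cells and 11.95 and 12.01 in WT cells, and Egln3, itself a known target of the hypoxia-inducible factors, 4.50 and 6.22 in KO cells and 6.56 and 5.67 in WT cells. The groups overlapped for Egln2 and Egln3. The oxygen-regulated subunits also overlapped between the genotypes, with Hif1a at 10.45 and 10.22 in KO cells and 10.45 and 11.16 in WT cells and Epas1 at 13.53 and 13.27 in KO cells and 12.90 and 13.76 in WT cells. Of the 14 tested members of the Siah and oxygen-sensing list, 2 were lower in KO cells at an unadjusted p under 0.05 and 0 were higher. Over all genes 3.66% were lower and 2.80% higher. The 2 were Siah2 and Hif3a, a further subunit of that factor family, the latter at 3.31 and 3.55 in KO cells and 4.40 and 3.88 in WT cells. Of 14 known Siah substrates, 0 passed the unadjusted threshold, against 6.46% of all genes, and their median log2 fold change was -0.08.

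The genes next to Siah2 on chromosome 3 were read as a description of the region. Of the 10 nearest tested genes on each side, dim genes being skipped, 6 of 20 had groups that did not overlap. An unadjusted p under 0.05 was found for 2 of them, against 6.46% of all genes. Of the 6, 4 lay above and 2 below WT, which is near the 16.6% and 15.0% of all genes, so nothing about the region is read from the count. Erich6, the nearest tested gene on its side, lay at 6.32 and 6.66 in KO cells and 3.55 and 4.01 in WT cells. Its KO samples were higher by 2.71 (SE 0.56, limma adjusted p = 0.454), and the hypoxia samples differed by a similar 2.62. P2ry13, a purinergic receptor known from macrophages and microglia, lay at 4.82 and 4.01 in KO cells and 5.95 and 4.93 in WT cells. The other neighbours with groups that did not overlap were Pfn2, Gm40055, Tsc22d2 and P2ry12, chosen after their values were seen. Their log2 fold changes were 0.36, 0.98, 0.44 and -0.84. The WT mean of Gm40055, 3.27, lay under the dim level, and in hypoxia this gene differed by -0.82. Which allele these samples carried around Siah2 was not tested.

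The 14 genes at the higher end had log2 fold changes of 1.78 to 2.83, with adjusted p values between 0.121 and 0.74 over both ends. Wdfy1, an endosomal protein with a phosphoinositide-binding domain, gave 11.16 and 11.90 in KO cells and 9.16 and 8.24 in WT cells, a log2 fold change of 2.83 (SE 0.41) or 7.12-fold. Both KO samples lay well above both WT samples, and the hypoxia samples differed by 3.02. A second bright spot for Wdfy1 gave 2.79, while another, at 8.66 and 8.24 in KO cells and 9.07 and 8.40 in WT cells, gave -0.29. The spots of Wdfy1 thus disagreed, and the mean over its spots was 1.47. Ptprz1, a receptor-type phosphatase known from glia, gave 8.07 and 7.60 in KO cells and 5.38 and 5.61 in WT cells (2.34, SE 0.22, limma adjusted p = 0.121). Replicates of each genotype lay close together there, and the groups were far apart.

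Myh8, Myh2 and Tnnt2 were the muscle genes among the 14. Myh8, the perinatal skeletal myosin heavy chain, gave 6.32 and 6.85 in KO cells and 4.76 and 3.48 in WT cells, with a log2 fold change of 2.47 (SE 0.56). Myh2, a fast skeletal myosin heavy chain, gave 6.76 and 6.60 in KO cells and 4.57 and 4.91 in WT cells (1.94, SE 0.22, limma adjusted p = 0.171). Tnnt2, troponin T of the cardiac thin filament, was the brightest of them at 10.86 and 10.93 in KO cells and 9.51 and 8.54 in WT cells (1.87, SE 0.44). The KO samples lay above the WT samples for all of them. These rested on 1 spot each: the other spots of the same genes were dim, and the mean over spots was 0.46 for Myh8, 0.56 for Myh2, 0.50 for Tnnt2 and 0.75 for Ptprz1. The cardiomyocyte markers as a list were mixed: of 10 tested, 3 lay above and 2 below in both KO samples, but both of the lower ones had KO means under the dim level and 1 of the higher ones a WT mean under it. Of the 14 genes on that list, 4 were dim: Myh6, Myh7, Tnni3 and Pln.

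The remaining genes at the higher end were of varied function and mostly low level. Tbx15, a T-box factor of limb and skeletal development, gave 5.67 and 5.78 in KO cells and 3.89 and 3.99 in WT cells, a log2 fold change of 1.78 (SE 0.25). Myct1 gave 6.26 and 6.55 in KO cells and 4.86 and 3.73 in WT cells (2.11, SE 0.37), and the matrix protein vitrin, encoded by Vit, 6.19 and 5.75 in KO cells and 3.19 and 4.92 in WT cells (1.92, SE 0.57). Tnfrsf18, the T-cell costimulatory receptor GITR, gave 5.50 and 5.36 in KO cells and 3.63 and 3.30 in WT cells. In hypoxia Tnfrsf18 differed by only 0.34 and the groups overlapped. Nars2, the mitochondrial asparaginyl-tRNA synthetase, behaved likewise, with 5.0 and 5.78 in KO cells and 3.11 and 3.99 in WT cells in normoxia and a hypoxia difference of 0.21. Ecel1, a membrane metalloprotease, Spats1 and Lce1i, a cornified-envelope gene, completed the higher end with log2 fold changes of 1.85, 1.89 and 1.79. WT levels of Spats1 and Ecel1 lay under the dim level, so their folds compare a low value with one at the array's floor. On the mean over spots the fold of Ecel1 was 1.05, that of Vit 1.05 and that of Spats1 0.63. The fold of Lce1i was 0.89 without KO replicate 2 and 1.12 without WT replicate 2, and that of Vit 1.05 without WT replicate 1.

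**Figure D1:**
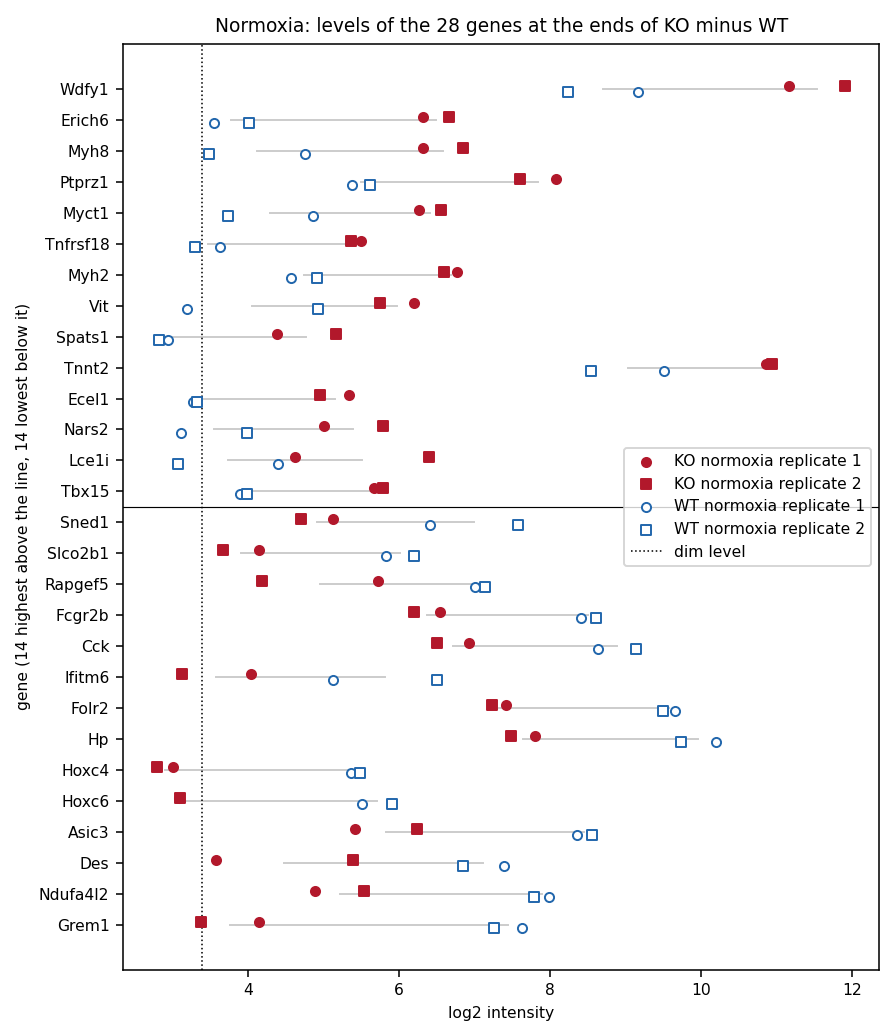
Log2 intensity (horizontal) of the 14 genes with the highest and the 14 with the lowest log2 fold change, KO minus WT, in normoxia, with 1 point per sample, filled red for KO and open blue for WT, grey lines joining the group means and a dotted line at the dim level of 3.39. Each gene's groups do not overlap, by the rule that chose them, and Grem1 lies at the lower end with a log2 fold change of -3.67.

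The 14 genes at the lower end had log2 fold changes of -2.09 to -3.67. Grem1, a secreted antagonist of bone morphogenetic proteins, gave 4.15 and 3.38 in KO cells and 7.63 and 7.25 in WT cells. This was a log2 fold change of -3.67 (SE 0.53, limma adjusted p = 0.361), 12.8-fold lower in KO cells, and one KO sample lay just under the dim level. In hypoxia the KO samples were lower by nearly the same amount, with a log2 fold change of -3.69. Hp, the haemoglobin-binding acute-phase protein haptoglobin, gave 7.80 and 7.48 in KO cells and 10.19 and 9.73 in WT cells (-2.32, SE 0.25, limma adjusted p = 0.171). Cck, the peptide hormone cholecystokinin, gave 6.92 and 6.50 in KO cells and 8.63 and 9.14 in WT cells (-2.17, SE 0.32), and its 10 spots all ran the same way, between -2.11 and -2.63. For Hp and Cck the replicates lay much closer to each other than the genotypes did. Asic3, an acid-sensing ion channel, gave 5.42 and 6.23 in KO cells and 8.35 and 8.55 in WT cells (-2.63), and its second spot gave -1.73.

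Des and Ndufa4l2 belonged to the muscle and hypoxia-linked genes of that end. Des, the intermediate filament protein desmin, gave 3.57 and 5.39 in KO cells and 7.39 and 6.84 in WT cells (-2.63, SE 0.59). Its KO samples were far apart, and the mean over its spots, of which the second was near the dim level, was -1.56. Ndufa4l2, a mitochondrial protein known to be induced through hypoxia-inducible factors, gave 4.89 and 5.54 in KO cells and 7.98 and 7.79 in WT cells (-2.67, SE 0.97). In hypoxia it gave 9.15 and 6.28 in KO cells and 9.53 and 11.23 in WT cells, a wide spread that its standard error carries, and the mean over its 2 spots in normoxia was -1.36. Rapgef5, an exchange factor for Rap GTPases, gave 5.72 and 4.18 in KO cells and 7.01 and 7.14 in WT cells, and its 3 spots gave -2.12, -1.70 and -1.97. Rapgef5 differed by -1.36 without KO replicate 2, and Des by -1.72 without KO replicate 1. Sned1, a matrix glycoprotein, gave 5.12 and 4.70 in KO cells and 6.41 and 7.57 in WT cells, and Slco2b1, an organic anion transporter, 4.14 and 3.67 in KO cells and 5.82 and 6.20 in WT cells. Both KO samples lay below both WT samples for each of them, with log2 fold changes of -2.09 and -2.11, the second of which was -1.30 on the mean over spots. Folr2, Fcgr2b, Ifitm6 and the Hox genes Hoxc4 and Hoxc6 made up the rest of the lower end.

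Macrophage transcripts lay lower in KO cells with few exceptions. Of 22 markers, 1 was sex-linked and 2, Cd163 and Lyve1, were dim in both genotypes. Of the 19 tested, 18 had both KO samples below both WT samples, against 15.0% of all genes tested, and 0 had them above. At an unadjusted p under 0.05, 8 were lower and 0 higher, against 3.66% and 2.80% of all genes. The median log2 fold change was -1.24, against 0.03 over all tested genes. The list had been seen to be lower in earlier results of these data, so the count is no independent evidence of its direction. In bulk samples, fewer cells of a type and less RNA per cell cannot be told apart.

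The named members were the folate receptor of resident macrophages, a growth-factor receptor, a lysosomal protein and a transcription factor. Folr2, folate receptor beta, gave 7.42 and 7.23 in KO cells and 9.65 and 9.49 in WT cells, a log2 fold change of -2.24 (SE 0.19, limma adjusted p = 0.121). Csf1r, the receptor for the macrophage growth factor CSF-1, gave 12.01 and 12.66 in KO cells and 13.66 and 14.29 in WT cells (-1.64, SE 0.38). Spi1, which encodes the myeloid transcription factor PU.1, gave 5.74 and 5.33 in KO cells and 6.68 and 6.86 in WT cells (-1.23, SE 0.28), and Laptm5, a lysosomal membrane protein of blood cells, 10.67 and 10.09 in KO cells and 11.44 and 11.83 in WT cells (-1.25, SE 0.37). None of them overlapped between genotypes, and Laptm5 differed by -0.66 on the mean over spots. Fcgr2b, the inhibitory Fc receptor, lay outside the list and gave 6.54 and 6.19 in KO cells and 8.41 and 8.60 in WT cells (-2.14). Its second spot gave -1.62. Ifitm6, of the interferon-induced transmembrane family, gave 4.04 and 3.12 in KO cells and 5.12 and 6.50 in WT cells (-2.23). KO replicate 2 lay under the dim level there. Ifitm6 differed by -2.92 without WT replicate 1 and by -1.54 without WT replicate 2, both in normoxia. The bright myeloid lysozyme gene Lyz2, chosen after its values were seen, lay at 15.96 and 15.47 in KO cells and 15.98 and 15.98 in WT cells, near the top of the array's range.

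The size of the macrophage difference rested on which samples were read. Summed on a linear scale over the 21 autosomal markers, the 2 dim ones included, they gave 116479 and 77473 in KO cells and 146458 and 180504 in WT cells. Lyz2, near the top of the array's range, made up a large part of each sum. KO replicate 2 was the lowest and WT replicate 2 the highest, and the groups did not overlap. The median log2 fold change was -1.79 without KO replicate 1 in normoxia and -0.70 without KO replicate 2. In hypoxia the list's median was -1.20, and 18 of the 19 tested markers again had both KO samples below both WT samples, against 15.7% of all tested genes.

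**Figure D2:**
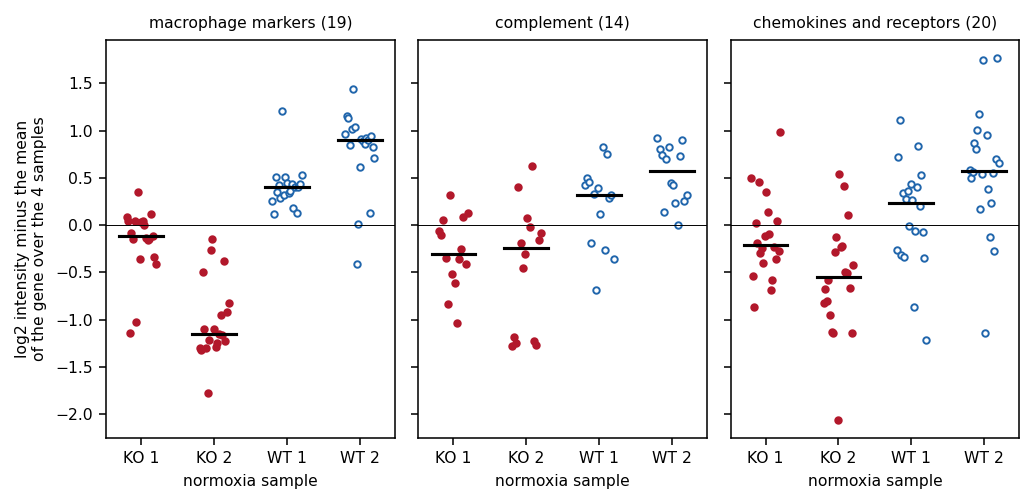
Log2 intensity minus the gene's mean over the 4 normoxia samples (vertical) for each tested macrophage marker, complement gene and chemokine or receptor, by sample, with filled red points for KO, open blue points for WT and a black bar at the median. The macrophage medians of both KO samples lie below those of both WT samples, and KO replicate 2 lies lowest.

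Promoters of macrophage members are shown because these genes are lower together and PU.1, whose gene Spi1 is lower with them, is known to bind purine-rich sites with the core GAGGAAG. That motif, or its complement CTTCCTC, was searched on both strands in RefSeq windows from 250 bases before to 50 after each gene's start (GRCm38.p6). Of all 32851 windows, 4477 (13.6%) held it. Of the 19 tested members, 13 had a window, with 16 windows between them, and 6 of the 16 windows held the motif. These windows belonged to 5 members: Laptm5, Itgam, Fcgr1, Fcgr3 and Mrc1. Whether that share differs from the share of all windows was not tested. A match is a description and not a site of binding. The windows of Laptm5 (chr4:130913066-130913365, plus strand), Fcgr1 (chr3:96293920-96294219, minus strand) and Mrc1 (chr2:14229164-14229463, plus strand) follow, with the motif in capitals.
Laptm5: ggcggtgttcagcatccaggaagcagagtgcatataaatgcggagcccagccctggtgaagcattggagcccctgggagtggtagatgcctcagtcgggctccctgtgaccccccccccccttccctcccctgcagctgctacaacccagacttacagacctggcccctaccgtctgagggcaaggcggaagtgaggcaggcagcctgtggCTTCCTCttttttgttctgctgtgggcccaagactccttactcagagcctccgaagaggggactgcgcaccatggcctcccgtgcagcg
Fcgr1: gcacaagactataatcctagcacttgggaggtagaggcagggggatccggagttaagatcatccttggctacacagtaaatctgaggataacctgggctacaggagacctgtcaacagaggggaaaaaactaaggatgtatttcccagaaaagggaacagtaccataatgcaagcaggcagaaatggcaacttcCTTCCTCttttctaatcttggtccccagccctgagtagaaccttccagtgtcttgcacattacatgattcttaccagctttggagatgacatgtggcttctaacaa
Mrc1: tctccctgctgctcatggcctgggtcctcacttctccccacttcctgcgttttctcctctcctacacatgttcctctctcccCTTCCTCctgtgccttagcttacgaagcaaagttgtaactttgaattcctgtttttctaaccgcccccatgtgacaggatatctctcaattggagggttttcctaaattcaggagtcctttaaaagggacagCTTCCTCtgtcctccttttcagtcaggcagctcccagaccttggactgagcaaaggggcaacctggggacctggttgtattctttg
Fcgr1, an activating receptor for IgG, and Mrc1, the mannose receptor, were chosen here after their values were seen. Fcgr1 gave 8.16 and 7.03 in KO cells and 8.57 and 8.74 in WT cells, and Mrc1 10.03 and 8.21 in KO cells and 10.27 and 11.42 in WT cells. Both lay below WT in both KO samples, but KO replicate 1 came close to WT replicate 1.

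Complement genes also lay on the lower side, with 10 of 14 below WT in both KO samples and 0 above, against 15.0% and 16.6% of all genes. At an unadjusted p under 0.05, 6 were lower, against 3.66% of all genes, and 0 higher, and the median was -0.92 in normoxia and in hypoxia. C3ar1, the receptor for the C3a fragment, gave 7.83 and 6.86 in KO cells and 8.83 and 8.81 in WT cells (-1.48, SE 0.38). C3, the central component, gave 13.49 and 13.70 in KO cells and 14.40 and 14.45 in WT cells (-0.82, SE 0.19), the serine protease gene C1s1 7.63 and 8.28 in KO cells and 8.79 and 9.16 in WT cells, and the C1 inhibitor gene Serping1 13.00 and 13.25 in KO cells and 13.73 and 13.66 in WT cells. The groups lay apart for each of these genes, and C1s1 differed by -0.43 on the mean over spots. The median was -0.57 on the mean over spots, and the summed macrophage markers were lower in the same samples. Their part in the complement result was not tested.

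Chemokines and their receptors ran the same way in 10 of 20 members, and 1 lay above WT in both KO samples, against 15.0% and 16.6% of all genes. At an unadjusted p under 0.05, 7 were lower, against 3.66% of all genes, and 0 higher. The median was -0.59, and it was -0.96 without WT replicate 1 in normoxia. Ccl4 and Ccl3, inflammatory chemokines made by macrophages and other leukocytes, gave 7.55 and 7.61 in KO cells and 9.52 and 8.97 in WT cells for Ccl4 (-1.67, SE 0.23), and 6.65 and 6.51 in KO cells and 7.90 and 7.68 in WT cells for Ccl3 (-1.21, SE 0.22). Cxcl14, a chemokine of stromal and epithelial cells, gave 9.20 and 9.29 in KO cells and 10.62 and 10.02 in WT cells, and Ccl6 9.06 and 8.29 in KO cells and 9.58 and 10.05 in WT cells. Both KO samples lay below both WT samples for all of them, and the mean over spots of Cxcl14 differed by -0.53. The part of the macrophage markers in these values was not tested.

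Interferon-stimulated genes had a low median, -0.91, that depended on the WT samples read. Of 23 tested, 10 lay below and 1 above WT in both KO samples, against 15.0% and 16.6% of all genes. An unadjusted p under 0.05 was found for 2, both lower, against 3.66% of all genes. Oasl1, an antiviral 2'-5' oligoadenylate synthetase-like protein, gave 5.46 and 4.90 in KO cells and 7.14 and 6.72 in WT cells (-1.75, SE 0.53), and the guanylate-binding protein gene Gbp2 gave 8.65 and 8.88 in KO cells and 9.44 and 9.70 in WT cells (-0.80, SE 0.26). The median was -0.34 without WT replicate 2 in normoxia and -1.43 without WT replicate 1. It was -0.34 in hypoxia as well, where 1 gene lay below and 1 above. Oasl1 differed by -0.99 on the mean over spots.

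Antigen presentation and lysosomal genes lay lower to a smaller degree. Of 11 MHC class I and immunoproteasome genes, 7 lay below WT in both KO samples, against 15.0% of all genes. At an unadjusted p under 0.05 were 4, all lower, against 3.66% of all genes, and the list's median was -0.54. That median was -0.29 without KO replicate 2 in normoxia. Psmb8, an immunoproteasome subunit, gave 8.65 and 8.27 in KO cells and 9.57 and 9.67 in WT cells (-1.16, SE 0.31), and the peptide transporter gene Tap2 gave 10.18 and 9.75 in KO cells and 10.66 and 10.71 in WT cells (-0.72, SE 0.25). Of 6 tested MHC class II genes, 2 lay below and 1 above, and H2-DMb1, which helps load peptides, gave 8.66 and 7.77 in KO cells and 9.33 and 9.45 in WT cells. Of 17 lysosomal genes, 10 lay below and 1 above, against 15.0% and 16.6% of all genes. Their median was -0.31, and it was -0.18 without WT replicate 2 in normoxia. Ctsc, the protease cathepsin C, gave 10.37 and 9.48 in KO cells and 10.89 and 11.19 in WT cells (-1.12, SE 0.40), and Cd68, which is also on the macrophage list, 12.44 and 11.42 in KO cells and 12.87 and 13.37 in WT cells. On the mean over spots Tap2 differed by -0.24 and H2-DMb1 by -0.59. Without KO replicate 2 Ctsc differed by -0.67, Cd68 by -0.68 and H2-DMb1 by -0.73. KO replicate 2 had the lowest value for Psmb8, Tap2, Ctsc and Cd68, as it did for the summed macrophage markers. Other lower genes had their lowest normoxia value in KO replicate 1: Lipa of the lysosomal list, Gbp2, C3, C1s1, Serping1, Cxcl14 and the macrophage marker Csf1r. The part of the macrophage markers in these values was not tested.

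Lipid uptake genes were led by Cd36, a scavenger receptor and fatty acid translocase. Cd36 gave 5.20 and 5.12 in KO cells and 7.25 and 7.03 in WT cells, a log2 fold change of -1.98 (SE 0.18, limma adjusted p = 0.121). The replicates of each genotype lay close together and the genotypes far apart. In hypoxia the difference was -1.24, and the contrasts differed at a limma unadjusted p of 0.0251, with an adjusted p of 1.0. Fabp3, a fatty acid-binding protein of muscle, gave 5.55 and 5.17 in KO cells and 6.52 and 6.03 in WT cells, and the lipoprotein receptor gene Lrp1 11.71 and 11.46 in KO cells and 12.17 and 12.49 in WT cells. Apoe, the apolipoprotein that macrophages also secrete, gave 14.40 and 13.23 in KO cells and 14.85 and 15.40 in WT cells. Of 15 list members, 4 lay below WT in both KO samples and 0 above, against 15.0% and 16.6% of all genes. The median was -0.19, and it was -0.11 without KO replicate 2 and -0.45 without WT replicate 2. Lrp1 differed by -0.40 on the mean over spots, and Apoe by -0.73 without KO replicate 2.

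**Figure D3:**
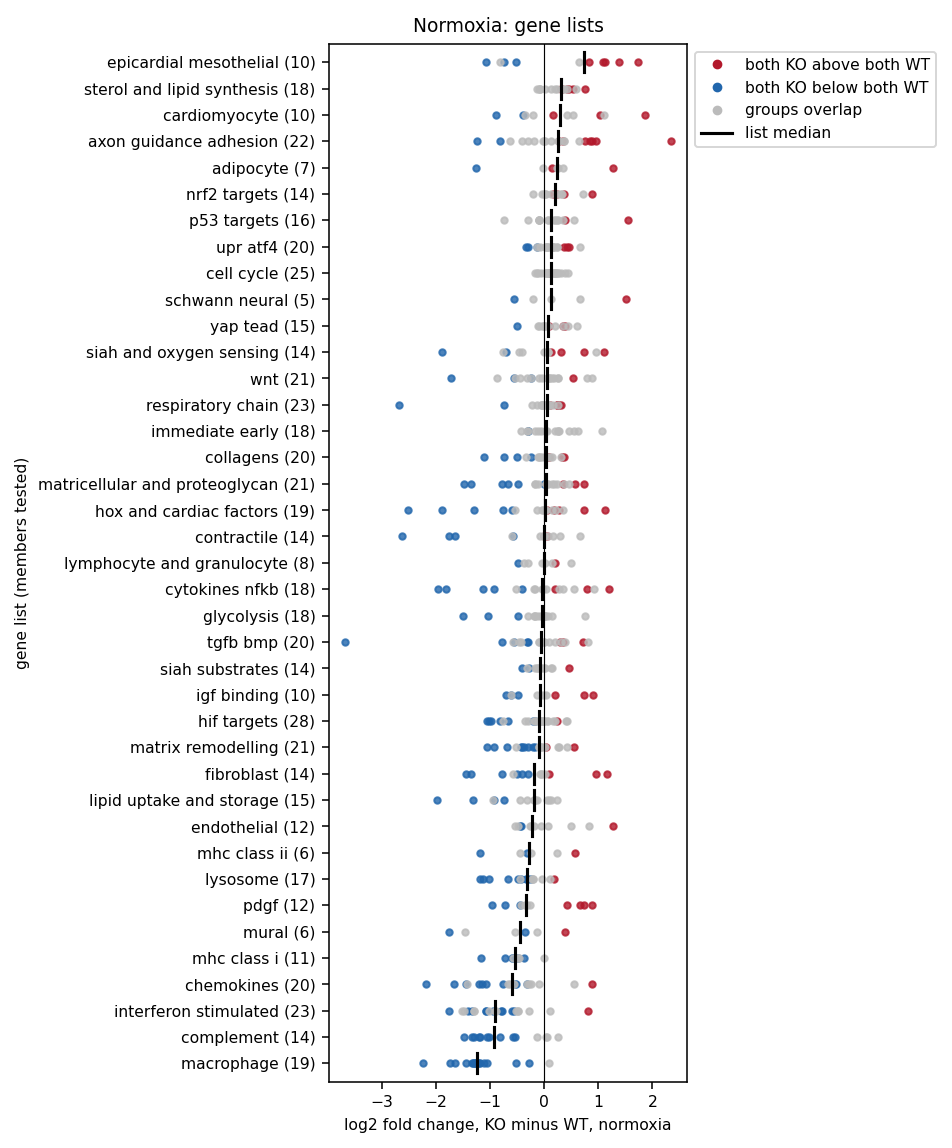
Log2 fold change, KO minus WT, in normoxia (horizontal) of each tested member of 39 gene lists (rows, ordered by median, with the number of members tested), with red points where both KO samples lay above both WT samples, blue where both lay below, grey where they overlapped and a black bar at the median. Macrophage and complement genes lie lowest, with medians of -1.24 and -0.92, and epicardial and mesothelial markers highest, with a median of 0.73.

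Genes of the contractile apparatus split. Mylk, myosin light chain kinase, gave 9.23 and 9.46 in KO cells and 11.01 and 10.98 in WT cells, a log2 fold change of -1.65 (SE 0.19, limma adjusted p = 0.171). Myh11, the smooth muscle myosin heavy chain, gave 4.60 and 5.29 in KO cells and 6.65 and 6.74 in WT cells (-1.75, SE 0.35). Both lay well apart between genotypes, and in hypoxia the differences were -1.66 for Mylk and -1.10 for Myh11. On the mean over its spots, Mylk differed by -0.81. Together with Des these were the 3 of 14 members with an unadjusted p under 0.05, all lower, against 3.66% of all genes. The list's median was 0.00. In both KO samples 4 members lay below WT and 2 above, with 1 of the higher ones at the ceiling. Over all genes the shares were 15.0% below and 16.6% above. Acta2, the smooth muscle actin that marks myofibroblasts, could not be compared because it lay at the ceiling, as 3 of the 14 did.

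Matrix genes did not move one way as a group. Of 20 collagen chains, 4 lay above and 4 below WT in both KO samples, close to the 16.6% and 15.0% of all genes, and the median was 0.03. Col6a3, a chain of microfibrillar collagen VI, gave 8.63 and 9.58 in KO cells and 9.98 and 10.44 in WT cells (-1.11, SE 0.39), and Col6a2, Col5a3 and Col5a2 differed by -0.50, -0.74 and 0.33. On the mean over spots those 3 differed by -0.22, -0.36 and 0.14. Among 21 matrix proteases and inhibitors, 9 lay below and 2 above, against 15.0% and 16.6% of all genes, and 1 of the higher ones was at the array's ceiling. At an unadjusted p under 0.05 there were 4, all lower, against 3.66% of all genes. Adamts4, an aggrecanase, gave 8.65 and 8.05 in KO cells and 9.43 and 9.39 in WT cells (-1.06, SE 0.27), and Mmp8, a collagenase, 5.91 and 6.37 in KO cells and 6.98 and 7.16 in WT cells (-0.93, SE 0.24). Of 21 matricellular and proteoglycan genes, 3 lay above and 6 below, against 16.6% and 15.0% of all genes, and the median was 0.03. Of the lower ones 1 was at the ceiling. The small proteoglycans decorin and lumican were lower in both KO samples. Dcn gave 13.93 and 14.15 in KO cells and 14.65 and 14.96 in WT cells (-0.77, SE 0.19). Lum gave 6.11 and 7.46 in KO cells and 8.26 and 8.02 in WT cells (-1.35, SE 0.54). Other small proteoglycans did not follow: Ogn, Prelp, Aspn and Omd overlapped, and Fmod (0.35) lay above WT in both KO samples. Fn1, fibronectin, lay higher in both, at 15.62 and 15.67 in KO cells and 14.94 and 15.20 in WT cells, but its mean over spots differed by -0.01. Col6a3 differed by -0.62 on the mean over spots and by -0.63 without KO replicate 1, and Lum by -0.68 without that sample.

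The fibroblast markers themselves split. Of 14, 3 lay above and 6 below WT in both KO samples, against 16.6% and 15.0% of all genes, and the median was -0.18. At an unadjusted p under 0.05 there were 2 higher and 4 lower, against 2.80% and 3.66% of all genes. Fap, fibroblast activation protein, gave 6.23 and 6.47 in KO cells and 8.23 and 7.36 in WT cells (-1.45, SE 0.35). On the other side, Dpt, the matrix protein dermatopontin, gave 7.33 and 7.75 in KO cells and 6.14 and 6.60 in WT cells (1.17, SE 0.29), and Thy1, a surface glycoprotein, 14.12 and 14.50 in KO cells and 13.57 and 13.13 in WT cells (0.96, SE 0.26). None of these groups overlapped.

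Hypoxia-inducible factor targets were examined in normoxia because Siah2 is known to act upstream of that factor. Of 28 tested, 7 lay below WT in both KO samples and 1 above, against 15.0% and 16.6% of all genes, and the median was -0.09. Car9, a carbonic anhydrase, gave 4.39 and 4.89 in KO cells and 5.32 and 5.97 in WT cells (-1.01, SE 0.37). Pfkfb4, a regulator of glycolysis, gave 8.03 and 7.30 in KO cells and 8.44 and 8.85 in WT cells (-0.98, SE 0.30). Pdk1, which restrains pyruvate dehydrogenase, gave 7.94 and 7.69 in KO cells and 8.42 and 8.85 in WT cells, and the mitophagy receptor gene Bnip3 10.54 and 10.45 in KO cells and 10.89 and 11.42 in WT cells. All of them lay below WT in both KO samples, with Pdk1 at -0.82 and Bnip3 at -0.66. From normoxia to hypoxia the WT mean rose for Pdk1 (8.63 to 10.88) and Bnip3 (11.15 to 13.8). It barely moved for Pfkfb4 (8.64 to 8.76) and did not rise for Car9 (5.65 to 5.17). On the mean over spots Pdk1 differed by -0.27, Car9 by -0.48 and Pfkfb4 by -0.45. Bnip3 differed by -0.39 without WT replicate 2 and Pfkfb4 by -0.62 without KO replicate 2, both in normoxia. Of 18 glycolysis genes, 4 lay below and 0 above. Of the 4, 1 was at the array's ceiling, and the other 3 of 17 are near the 15.0% of all genes. The lactate exporter gene Slc16a3 gave 9.89 and 11.01 in KO cells and 12.00 and 11.89 in WT cells (-1.50, SE 0.36), and the aldolase gene Aldoc 8.22 and 7.14 in KO cells and 8.64 and 8.79 in WT cells. Slc16a3 differed by -0.63 on the mean over spots and by -0.94 without KO replicate 1. Aldoc, at -1.03, differed by -0.50 without KO replicate 2.

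Growth-factor signalling genes showed single members apart rather than whole lists. In the TGF-beta and BMP list, 3 of 20 lay above and 5 below, with Grem1 the lowest and the inhibitory Smad7 at 10.52 and 10.76 in KO cells and 10.05 and 9.82 in WT cells (0.71, SE 0.19). Among IGF-binding proteins, Igfbp2 gave 13.97 and 13.38 in KO cells and 12.56 and 12.99 in WT cells (0.90) and Igfbp4 9.38 and 8.97 in KO cells and 8.32 and 8.55 in WT cells (0.74), both higher in both KO samples, while Igfbp6 gave 9.40 and 9.85 in KO cells and 10.06 and 10.60 in WT cells (-0.70). Igfbp6 differed by -0.43 without WT replicate 2 in normoxia. Wnt4, a secreted Wnt ligand, gave 4.77 and 4.17 in KO cells and 5.77 and 6.61 in WT cells (-1.72, SE 0.52). Pdgfrl, a protein related to the PDGF receptors, gave 7.04 and 7.38 in KO cells and 8.27 and 8.09 in WT cells (-0.97), whereas Met, the receptor for hepatocyte growth factor, gave 7.48 and 7.70 in KO cells and 6.37 and 7.03 in WT cells (0.89). Of the cytokine and NF-kB list, Tnf gave 5.66 and 3.91 in KO cells and 6.75 and 6.74 in WT cells, and the acute-phase gene Saa3 7.31 and 8.22 in KO cells and 10.10 and 9.05 in WT cells. Both lay below WT in both KO samples, with log2 fold changes of -1.96 and -1.81, and Tnf differed by -1.08 without KO replicate 2. On the mean over spots Met differed by 0.34 and Pdgfrl by -0.52. Over whole lists, the Wnt list had 1 of 21 above and 3 below, the IGF list 3 of 10 and 3, the PDGF list 4 of 12 and 3, and the cytokine list 3 of 18 and 5. Over all genes the shares were 16.6% above and 15.0% below, so the Wnt list had fewer above and about that share below. In the PDGF and cytokine lists 1 of the higher genes each had a WT mean under the dim level.

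Hox genes, the homeobox factors that record position along the body axis, were read as a family after values of Hoxc4 and Hoxc6 had been seen. Of 38 autosomal Hox genes 15 were dim and 23 were tested. Of these, 10 lay below WT in both KO samples and 3 above. Of the 10, 6 had a KO mean under the dim level, and of the 3, 1 had a WT mean under it, so they passed the filter through the other genotype and their count supports nothing. Of the 14 whose means both lay above that level, 4 were below and 2 above, against 15.0% and 16.6% of all genes. Hoxc6 gave 3.09 and 3.10 in KO cells and 5.51 and 5.91 in WT cells (-2.61, SE 0.41), and Hoxc4 gave 3.01 and 2.80 in KO cells and 5.36 and 5.48 in WT cells (-2.52, SE 0.31, limma adjusted p = 0.257). The KO values of both were under the dim level, so their size is set by the floor of the array. A second spot for Hoxc6, also low, gave -0.76, and the mean over both was -1.69. Hoxa3 gave 3.23 and 3.50 in KO cells and 4.66 and 5.83 in WT cells, and Hoxb6 2.94 and 2.69 in KO cells and 3.98 and 5.19 in WT cells. Their KO means too lay under the dim level, and Hoxa3 differed by -0.91 on the mean over its spots, against -1.88. Against these, Hoxb3 gave 5.44 and 4.83 in KO cells and 4.27 and 4.55 in WT cells, and Hoxd9 4.90 and 3.45 in KO cells and 2.94 and 2.87 in WT cells.

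**Figure D4:**
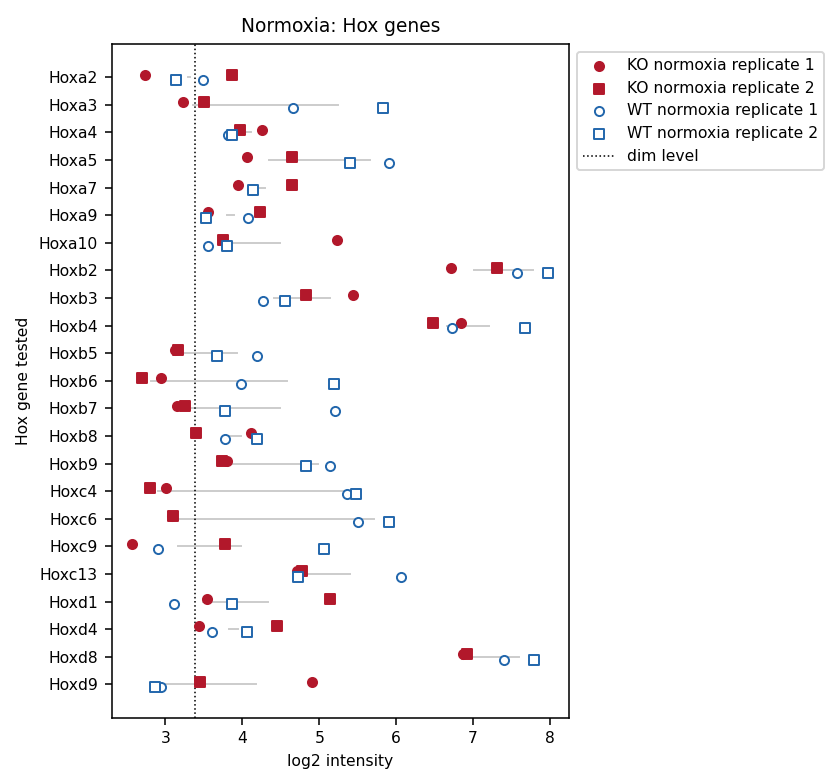
Log2 intensity (horizontal) of the 23 tested Hox genes in the 4 normoxia samples, with filled red points for KO, open blue points for WT, grey lines joining the group means and a dotted line at the dim level of 3.39. Hoxc4 and Hoxc6 lie at or under the dim level in both KO samples and above 5 in both WT samples.

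Epicardial and mesothelial markers had members on both sides and the highest median of the lists. Of 10 tested, 5 lay above and 3 below WT in both KO samples, against 16.6% and 15.0% of all genes. At an unadjusted p under 0.05 there were 4 higher and 1 lower, against 2.80% and 3.66% of all genes. The median was 0.73 in normoxia and 0.15 in hypoxia. Upk3b, a uroplakin of mesothelium, gave 9.83 and 9.56 in KO cells and 8.43 and 8.21 in WT cells (1.38, SE 0.19, limma adjusted p = 0.361). The mesothelial surface protein gene Msln gave 8.27 and 7.20 in KO cells and 5.64 and 6.38 in WT cells (1.73, SE 0.43), and the keratin gene Krt19 7.17 and 7.64 in KO cells and 6.58 and 5.98 in WT cells (1.13, SE 0.28). Krt18, another simple-epithelium keratin, ran the other way at 6.20 and 6.55 in KO cells and 7.03 and 7.20 in WT cells. The median was 0.31 without KO replicate 1 and 0.28 without WT replicate 1, both in normoxia.

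Axon guidance and adhesion genes showed 7 of 22 above and 2 below, against 16.6% and 15.0% of all genes, with a median of 0.26. Besides Ptprz1, the secreted guidance cue Sema3d gave 10.85 and 10.81 in KO cells and 10.08 and 9.82 in WT cells (0.88, SE 0.19). The Slit ligand Slit3 gave 8.53 and 8.63 in KO cells and 9.82 and 9.81 in WT cells (-1.24, SE 0.20), and the semaphorin co-receptor Nrp1 11.18 and 11.15 in KO cells and 12.06 and 11.90 in WT cells (-0.81, SE 0.19). Sema3d was higher and Slit3 and Nrp1 lower in both KO samples, and the replicates of each genotype lay close together. The list's median was 0.07 without KO replicate 1 in normoxia, 0.10 on the mean over spots and 0.17 without WT replicate 1 in normoxia.

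Markers of other cell types gave single genes. Emcn, an endothelial sialomucin, gave 9.24 and 8.97 in KO cells and 7.68 and 7.99 in WT cells (1.27, SE 0.27), yet of 12 endothelial markers 1 lay above and 2 below, 1 of them with a KO mean under the dim level. S100b, a calcium-binding protein of glia, gave 7.12 and 7.0 in KO cells and 5.19 and 5.91 in WT cells (1.51, SE 0.31), while the glial markers Sox10 and Gfap were dim. Of 5 glial and neural markers tested, 1 lay above and 1 below. The lower one, Mbp, gave 8.73 and 8.35 in KO cells and 8.93 and 9.26 in WT cells. Cebpa, a transcription factor of adipocytes and myeloid cells, gave 5.63 and 5.76 in KO cells and 7.17 and 6.74 in WT cells (-1.26, SE 0.22), and the adipocyte genes Adipoq and Plin1 were dim. Of 7 adipocyte markers tested, 2 lay above and 1, Cebpa, below. For 1 of the higher ones the WT mean was under the dim level. Of 8 lymphocyte and granulocyte markers tested, 1 lay above and 1 below. Mural markers had 1 of 6 above and 2 below. Over all genes 16.6% lay above and 15.0% below.

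Housekeeping and stress lists are read against the 16.6% of all genes above and 15.0% below. Of 25 cell-cycle genes, 1 lay above and 0 below, with a median of 0.12 and no unadjusted p under 0.05 in limma. That median was -0.18 without KO replicate 1 and 0.43 without KO replicate 2. Sterol and lipid synthesis genes had 6 of 18 above and 0 below, with a median of 0.32 and again no unadjusted p under 0.05. Without KO replicate 2 their median was 0.04. Among NRF2 targets, 4 of 14 lay above and 0 below, and the quinone reductase gene Nqo1 gave 9.74 and 9.01 in KO cells and 8.32 and 8.65 in WT cells. Perp, a p53 target of cell junctions, gave 7.92 and 7.06 in KO cells and 5.87 and 6.02 in WT cells (1.55, SE 0.43), with 2 of 16 p53 targets above and 0 below. In the unfolded-protein and ATF4 list 3 of 20 lay above and 3 below, and the serine synthesis gene Psat1 gave 11.37 and 11.58 in KO cells and 11.06 and 11.04 in WT cells. Respiratory chain genes had 5 of 23 above and 2 below, immediate early genes 0 of 18 above and 2 below, and YAP and TEAD targets 3 of 15 above and 1 below. Median log2 fold changes were 0.05, 0.03 and 0.08 for these.

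The log2 fold changes that ordered the normoxia genes came from the normoxia samples alone. The spread within the hypoxia groups entered the p-values that chose these genes, and each gene's spot was picked over all 8 samples. A small spread in hypoxia was thus favoured by the choice, so the hypoxia samples are not wholly outside it. Whether the hypoxia samples came from the same cultures as the normoxia samples is not stated. Deviations of same-numbered samples from their group means correlated across genes with r = 0.338 between the KO groups and 0.308 between the WT groups. In hypoxia, 1022 genes (6.23%) had an unadjusted p under 0.05, 402 higher (2.45%) and 620 lower (3.78%), and 0 were called (0%). Both KO samples lay above both WT samples for 16.3% of genes there and below for 15.7%. Of the 460 genes higher in normoxia, 260 (56.5%) had both KO samples above both WT samples in hypoxia and 50 had them below. Of the 600 lower genes, 440 (73.3%) had them below in hypoxia and 41 above. Of the 14 highest named genes 11 kept both KO samples above both WT samples in hypoxia, and of the 14 lowest all 14 kept them below.

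The differences between the normoxia and hypoxia contrasts were tested for all genes, with 0 called (0%) and 400 (2.44%) at an unadjusted p under 0.05 in limma. No gene was called particular to normoxia by that test. Among the 28 named genes, 5 had an unadjusted p under 0.05: Ptprz1, Myh2, Nars2, Tbx15 and Hoxc4. Their log2 fold changes in hypoxia were 1.58, 1.09, 0.21, 0.77 and -1.40, each nearer to 0 than in normoxia. The 28 genes were chosen for large normoxia differences, which enter this test, so a smaller difference in hypoxia and a small p were favoured by the choice and are given as a description. The 28 genes differed between the contrasts by at most 1.63 in size, for Nars2 and Tnfrsf18, and Siah2 by -1.70.

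**Figure D5:**
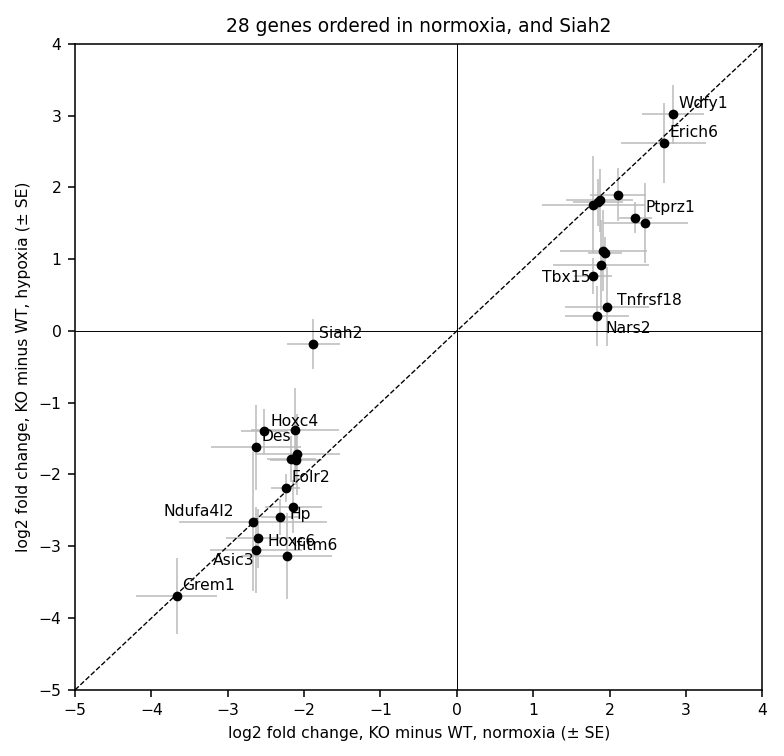
Log2 fold change, KO minus WT, in normoxia (horizontal) and in hypoxia (vertical) for the 28 genes at the ends of the normoxia comparison and for Siah2, with bars of 1 SE and a dashed line where both are equal. The genes chosen for normoxia keep their side of 0 in hypoxia, and Siah2 lies apart at -1.88 in normoxia and -0.18 in hypoxia.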

How the data were processed

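Transcripts of mouse heart fibroblasts were measured on an Agilent array with 1 dye. The authors deposited 1 table of 8 columns and 62976 spots, with 10 values missing. Its log2 intensities, whose base no source names and the values gave, had a median of 3.94 in each sample, so the columns shared a median as deposited. Limma was used, per the submitters' processing notes. The background correction and the normalization are not given in the sources used here.

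Of the spots, 43941 had 1 gene in the platform annotation, 19035 had none and 0 had several. Symbols came from a RefSeq table of GRCm38.p6, through an accession for 33704 spots, a current symbol for 9767 and a synonym for 463, and 7 kept their symbol. The brightest of a gene's spots over all samples stood for it, for 10657 autosomal genes out of more than 1 spot.

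The deposited values were fitted in limma 3.58.1 under R 4.3.3 (lmFit, eBayes) with a mean per group, all 8 samples (4 residual degrees of freedom, 2.25 prior) and Benjamini-Hochberg adjustment over 17014 genes, sex-linked ones included. Folds are KO minus WT, SE is limma's moderated standard error and calls needed an adjusted p under 0.05. The fit was tested on simulated data. The text names the 14 genes at each end with an unadjusted p under 0.05 and groups that did not overlap, 926 of 1060 after predicted and clone-type symbols were left out, up to 4 members of each of 39 lists by p, and the Siah and oxygen-sensing genes. The genes and lists were chosen with earlier results of these data known. Within normoxia, same-numbered KO and WT samples did not deviate together (r = -0.262), so the numbers were not taken as pairs. Alternatives were scaling shifts, quantile normalization, sample weights, robust and trended variance, other ways to filter dim genes or join spots, blocks and each sample left out.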

Additional observations from a re-analysis of the deposited data

How the results depend on the processing

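No autosomal gene was called in normoxia under any setting tried except the removal of the dimmest 50% of genes, which left fewer genes to adjust over and called 2, Cd36 and Folr2, both lower in KO cells. With p-values adjusted over autosomal genes alone, chosen after seeing the data, the smallest was 0.155. The 1060 genes at an unadjusted p under 0.05 became 899 with a replicate block, 1020 with the culture as a random block, 918 in a fit of the 4 normoxia samples and 779 to 1077 with 1 sample left out. The count was 2111 with crossed numbers as a block (KO replicate 1 with WT replicate 2), chosen after seeing the data. Normoxia samples of the same number deviated in opposite directions (r = -0.262), and the blocks changed no other call. Fn1 was -0.01 on the mean over spots, against 0.57; the cause was not tested.

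Of the list medians, 779 of the values under alternatives stayed within the spread between replicates and 40 moved past it. With the dimmest 50% removed, which leaves fewer members, the median was -0.01 for TGF-beta and BMP genes, 0.19 for axon guidance, -0.39 for lymphocyte and granulocyte markers and 0.77 for cardiomyocyte markers. On the mean over spots it was -0.08 for matricellular genes, -0.10 for TGF-beta and BMP genes, -0.57 for complement, -0.39 for MHC class I and 0.10 for axon guidance. With 1 sample left out, medians ranged from -1.79 to -0.70 for macrophage markers, -0.92 to -0.62 for complement, -0.78 to -0.29 for MHC class I, -0.22 to -0.07 for hypoxia-inducible factor targets, -0.21 to -0.08 for fibroblast markers and 0.28 to 0.96 for epicardial markers. They ranged from 0.07 to 0.28 for axon guidance, -0.96 to -0.45 for chemokines, -0.45 to -0.18 for lysosomal genes, -0.45 to -0.11 for lipid uptake, 0.04 to 0.47 for sterol synthesis, -1.43 to -0.34 for interferon-stimulated genes, -0.40 to -0.04 for MHC class II and on both sides of 0 for TGF-beta and BMP genes (-0.20 to 0.05), Wnt genes (-0.25 to 0.16), unfolded-protein genes (-0.09 to 0.30), respiratory chain genes (-0.03 to 0.12), PDGF genes (-0.52 to 0.34), glial markers (-0.49 to 0.27), lymphocyte markers (-0.32 to 0.03), cardiomyocyte markers (-0.14 to 0.33), cell-cycle genes (-0.18 to 0.43), p53 targets (-0.08 to 0.28), immediate early genes (-0.32 to 0.31), YAP and TEAD targets (-0.12 to 0.29), cytokines (-0.35 to 0.09), the Siah and oxygen-sensing list (-0.12 to 0.16) and Siah substrates (-0.16 to 0.07). With 2 samples in a group, a fit that leaves out 1 assumes that the lone sample varies like the other groups. Values near 3.39 lie at the floor of the array and values near 16 at its ceiling, and folds of genes there are limited by it.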
